A study of Mus musculus with 15 samples.

Results

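Cytosolic ribosomal protein genes encode the proteins that, together with ribosomal RNA, form the small and the large subunit of the ribosomes of the cytosol. Most of their mRNAs begin with a run of pyrimidines, the terminal oligopyrimidine tract, through which the mTOR pathway and the protein Larp1 set their translation and stability as a group. They are among the most abundant mRNAs of nearly every cell, and the proteins are needed in near-equal amounts, so their transcripts usually move together.

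The set described here holds 82 of the 54752 genes in the count table: the protein-coding genes named Rps or Rpl with a number, a few of them with a closing letter or l, together with Rpsa, Rplp0, Rplp1 and Rplp2. Of these, 32 belong to the small and 50 to the large subunit. The names alone chose them, and no measured value was used. RNA-seq had been made from nephron segments dissected after enzymatic digestion of mouse kidney slices, in 15 libraries. The groups were Cldn10a KO proximal convoluted tubule (n = 3, replicates 4, 5 and 7), WT proximal tubule (n = 4, replicates 1, 2, 3 and 6), Cldn10a KO distal convoluted tubule (n = 4, replicates 5 to 8) and WT distal tubule (n = 4, replicates 1 to 4). Cldn10a is the form of the tight junction gene Cldn10 that makes an anion-selective paracellular pore in proximal tubule, and the design asks what its loss does in each segment. A pool held 10 proximal or about 20 distal tubules of a kidney; the labels give neither strain, age nor sex, nor how the allele was made. Nothing in them states that libraries came from separate animals, and the spread behind each p-value may therefore be partly technical.

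The libraries held 28729339 to 51764746 counts, of which mitochondrial ribosomal RNA took 57.8 to 71.6%. Cldn10 had 0 counts in every KO proximal library, against 21.5 ± 8.66 CPM (counts scaled to a common library size of 1000000; SD, n = 4) in WT proximal tubule. The 12 proximal tubule markers summed to 5461 to 6701 CPM in KO proximal tubule and 4877 to 5617 CPM in WT proximal tubule, against 16.1 to 28.1 CPM in the distal libraries. The 10 distal convoluted tubule markers summed to 3912 to 4559 CPM in KO distal tubule and 3969 to 5281 CPM in WT distal tubule, against 50.4 to 64.2 CPM in the proximal libraries. The 8 thick ascending limb markers were also present in the distal pools, at 904 to 1234 CPM in KO and 832 to 1341 CPM in WT, as were those of other cells. In pooled tubules, fewer cells of a type and less RNA per cell cannot be told apart.

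Of the 82 genes, 80 had counts. Rpl10l and Rpl39l, paralogues of Rpl10 and Rpl39 known for their expression in testis, had 0 counts in all 15 libraries. Rpl3l, a paralogue of Rpl3 known from striated muscle, had at most 28 counts in a library. It passed the filter on low counts in the distal KO comparison, in the segment comparison of KO and in the interaction, which leaves 79 genes tested between genotypes in proximal tubule and between segments in WT, and 80 in the other comparisons. Per kilobase of annotated exon, the highest levels were those of Rpl10 (46.5 CPM per kilobase, mean over the 15 libraries), Rpl41 (45.9) and Rplp1 (43.7), a stalk protein. The lowest of the genes with counts were Rpl3l (0.149), Rps10 (0.223) and Rpl13a (0.464 CPM per kilobase). Annotated exon can be longer than the mRNA, as for Rpl10 with 2053 against 799 bases, and levels per mRNA length were not examined. Reads of these genes can be shared with near-identical copies, so the levels are uncertain: in the GENCODE M21 transcripts a median 52.2% of a member's 50-base words also occur in transcripts of other genes, over 90% in 4 members and under 10% in 8, and the annotation lists 294 ribosomal protein pseudogenes, of which 257 had counts. How the counting treated reads that match several places is not given in the sources used here.

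All members together took 1.71, 0.935 and 1.79% of the nuclear protein-coding counts in KO proximal replicates 4, 5 and 7, against 1.64, 1.8, 1.94 and 1.85% in WT proximal replicates 1, 2, 3 and 6. KO replicate 5 lay far below the other 6 proximal libraries, which overlapped. In distal tubule the share was 1.71, 1.87, 1.40 and 1.69% in KO replicates 5 to 8, against 2.02, 1.85, 1.94 and 1.67% in WT replicates 1 to 4. KO replicate 7 was the lowest there, and the other 3 KO libraries lay within the WT range. Group means were 1.48 ± 0.473% in KO proximal tubule (SD, n = 3) and 1.81 ± 0.128% in WT proximal tubule (SD, n = 4), a log2 ratio of −0.29, and 1.67 ± 0.198% in KO distal tubule and 1.87 ± 0.152% in WT distal tubule (SD, n = 4 each), a log2 ratio of −0.17. Without replicate 5 the KO proximal mean was 1.75% (n = 2) and the log2 ratio −0.04; without replicate 7 the KO distal mean was 1.76 ± 0.102% (SD, n = 3) and the log2 ratio −0.09.

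**Figure D1:**
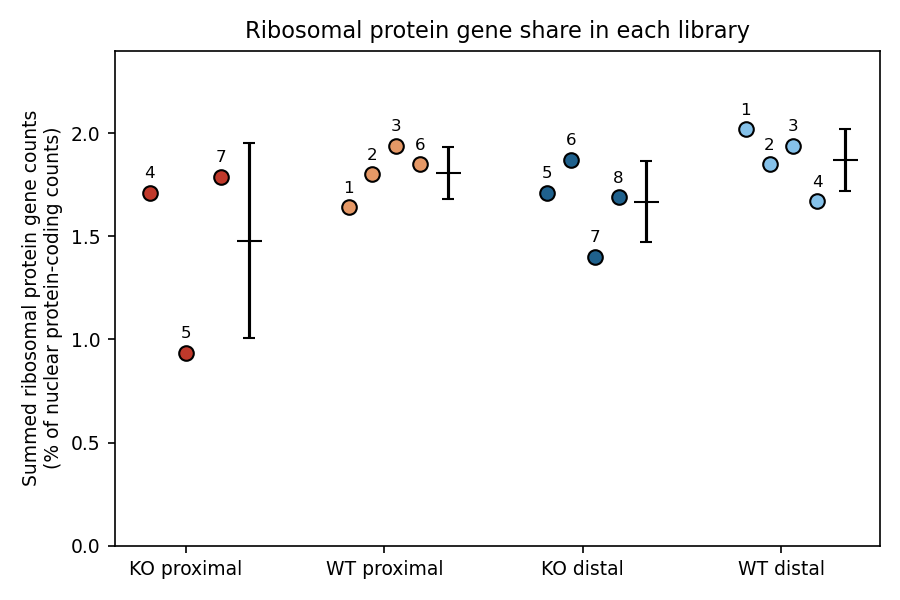
Summed counts of the 82 ribosomal protein genes as a percentage of nuclear protein-coding counts (vertical axis), with a point for each library labelled by replicate number in the 4 groups, and the group mean with its SD beside the points. KO proximal replicate 5, at 0.935%, and KO distal replicate 7, at 1.40%, are the lowest libraries of their segments.

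No ribosomal protein gene was called between KO and WT in proximal tubule (limma on voom weights, Benjamini-Hochberg adjusted p under 0.05): 0 of 79 were higher and 0 lower, where 0.0983% of all 13229 genes tested were called higher and 0.068% lower. The lowest adjusted p of a member was 0.435. At an unadjusted p under 0.05, 0 members were higher and 5 lower, where 4.21% of all genes tested were higher and 3.17% lower by the same rule. The log2 differences leaned one way, with 75 of 79 below 0 and a median of −0.28 (range −0.87 to 0.30), while the median of all genes was −0.01. Without KO replicate 5, the median of the members was 0.01, with 42 above and 37 below 0. The 10 endothelial markers summed to 23.4 to 40.5 CPM in KO proximal tubule and 12.9 to 27.5 CPM in WT proximal tubule, and their part in the ribosomal protein values was not tested. The library numbers in the sample descriptions fall into 2 ranges. Within the larger range the KO proximal libraries, replicates 4 (1.71%) and 5 (0.935%), had a mean share of 1.32% (n = 2). The WT proximal libraries of that range had a mean share of 1.79% (n = 3). The other range held 1 library of each, KO replicate 7 at 1.79% and WT replicate 6 at 1.85%.

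Rps21, a small subunit protein, had the smallest p. It stood at 10.3, 4.25 and 10.7 CPM in KO proximal replicates 4, 5 and 7, against 13.6, 13.9, 13.4 and 13.8 CPM in WT proximal tubule. All 3 KO libraries were below all 4 WT libraries, and the WT values hardly varied. The log2 difference was −0.82 ± 0.27 (SE; limma, unadjusted p = 0.00852, adjusted p = 0.435), and −0.39 without replicate 5 (adjusted p = 0.488). In distal tubule the same gene overlapped between genotypes, at 10.7, 11.8, 7.88 and 15.4 CPM in KO and 14.5, 10.9, 14.0 and 10.9 CPM in WT.

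The groups failed to overlap in proximal tubule for 4 members, all lower in KO and all of the small subunit: Rps12, Rps16, Rps21 and Rps27a, of 79 tested. Over all genes tested, 3.54% lay fully lower in KO and 4.44% fully higher, and 0 members lay fully higher. The 4 of 79 members are near the share fully lower, so this count does not set the members apart. Rps27a, which is made as a fusion with ubiquitin, had 12.8, 4.57 and 10.9 CPM in KO, against 13.6, 12.8, 13.4 and 13.9 CPM in WT proximal tubule. KO replicate 4 was nearly level with the lowest WT library. Rps16 had 20.9, 9.62 and 21.2 CPM in KO, against 22.1, 22.6, 23.3 and 22.0 CPM in WT, again with replicate 5 apart.

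The largest negative log2 difference belonged to Rps14, at 15.2, 3.98 and 13.4 CPM in KO proximal tubule, against 16.8, 17.1, 19.6 and 14.3 CPM in WT proximal tubule. KO replicate 4 lay inside the WT range. The log2 difference of −0.87 ± 0.35 (SE, adjusted p = 0.589) was −0.26 without replicate 5. Rps21, the X-linked Rps4x (−0.67), Rps15a (−0.67) and Rps27a (−0.66) completed the lowest 5, none of them called.

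At the other end stood Rpl4, a large subunit protein that lines the exit tunnel of the ribosome. It had 45.9, 60.6 and 47.7 CPM in KO proximal tubule, against 40.3, 39.5, 46.7 and 37.7 CPM in WT. Replicate 5, lowest for most members, was the highest of the 7 libraries for Rpl4. Its log2 difference was 0.30 ± 0.16 (SE, adjusted p = 0.728). Rpl23a (0.27), Rpl6 (0.13) and Rpl29 (0.13) were the other members above 0, all of the large subunit and none called.

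The stalk of the large subunit, built from Rplp0, Rplp1 and Rplp2, draws elongation factors to the ribosome. Rplp0 had 39.3, 12.9 and 46.0 CPM in KO proximal tubule, against 36.6, 40.8, 51.9 and 38.4 CPM in WT. Rplp1 had 23.3, 8.55 and 25.8 CPM in KO, against 22.6, 21.4, 26.9 and 26.5 CPM in WT, and Rplp2 13.9, 3.83 and 17.1 CPM in KO, against 11.7, 15.3, 16.0 and 16.7 CPM in WT. For all 3 stalk genes KO replicates 4 and 7 fell within or just above the WT range, and replicate 5 was far below it. Rpsa, a small subunit protein also known as a laminin receptor precursor, had 69.5, 38.0 and 74.7 CPM in KO, against 64.5, 65.6, 70.3 and 70.6 CPM in WT, with the same library apart.

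To set all members side by side, each log2 CPM was expressed relative to the WT mean of the same segment. In KO proximal replicate 5 the median of the 80 genes with counts was −0.93, with 77 of 80 below 0, while KO replicates 4 and 7 had medians of −0.04 and 0.07. In KO distal tubule the medians were −0.15, −0.00, −0.50 and −0.18 in replicates 5 to 8, and in replicate 7, 79 of 80 genes were below 0. The WT libraries had medians between −0.13 and 0.15. In KO proximal replicate 5 the genes were also spread wider, with quartiles at −1.35 and −0.60. Both subunits were low there, the small subunit with a median of −1.09 and the large with −0.85.

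**Figure D2:**
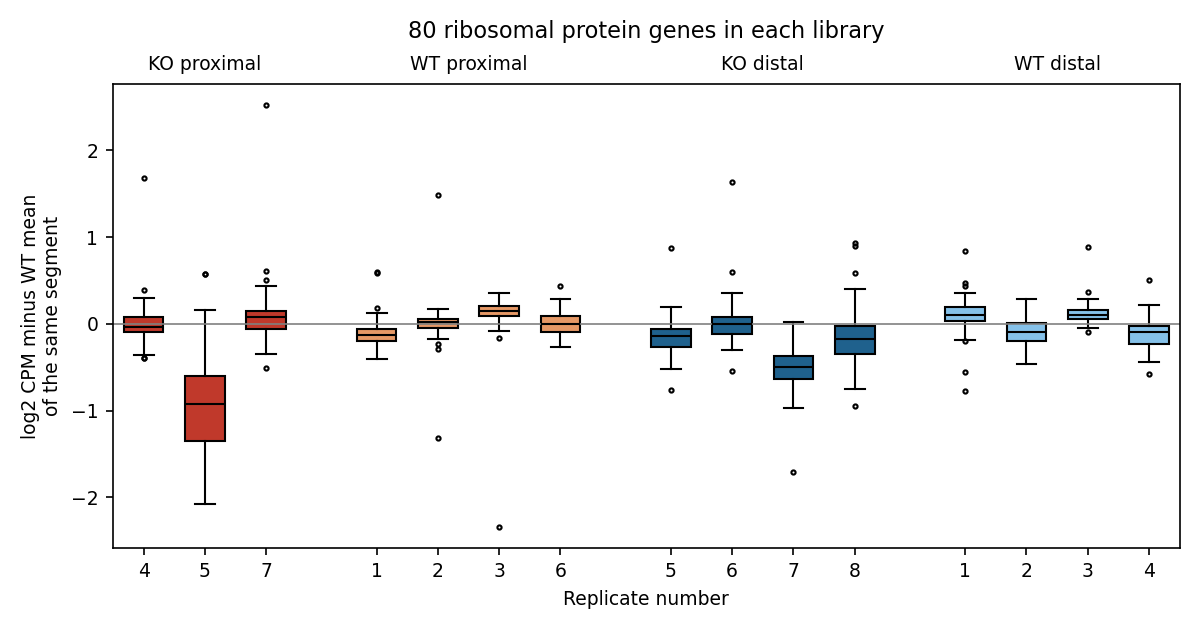
log2 CPM of the 80 ribosomal protein genes with counts minus the WT mean of the same segment (vertical axis) in each library, by replicate number and group. Boxes give quartiles and median, whiskers reach to 1.5 times the interquartile range and points lie beyond; KO proximal replicate 5 has a median of −0.93 and KO distal replicate 7 of −0.50.

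The deviations in KO proximal replicate 5 were uneven. Rps14 (−2.08), Rps4x (−1.97) and Rplp2 (−1.95) were lowest, while Rpl4 (0.57), Rpl13a (0.57) and Rpl6 (0.16) were above 0; Rpl13a rests on 81 counts there. Rpl23a (−0.06) and Rpl36al (−0.09) were near the WT mean, so the 5 highest were all large subunit genes. The median was −0.83 over the 30 members with a small nucleolar RNA gene inside and −1.03 over the other 50. It was −1.03 over the 40 members with shorter and −0.85 over the 40 with longer coding sequence, and across the 80 genes Pearson's r with log2 coding length was 0.30, a description over genes of a single library. In KO distal replicate 7 the lowest was Rps10 (−1.71, from 6 counts), then Rpl18 (−0.97) and Rpl41 (−0.88), and Rpl4 (0.02) was again highest. Across the 80 genes the deviations of those 2 libraries had r = 0.47. The same r was found for KO proximal replicate 4 with KO distal replicate 5, while KO distal replicate 7 had r = 0.19 with KO proximal replicate 4 and 0.04 with KO proximal replicate 7. These are descriptions over genes. In every pair the proximal library was set against the WT proximal mean and the distal library against the WT distal mean.

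**Figure D3:**
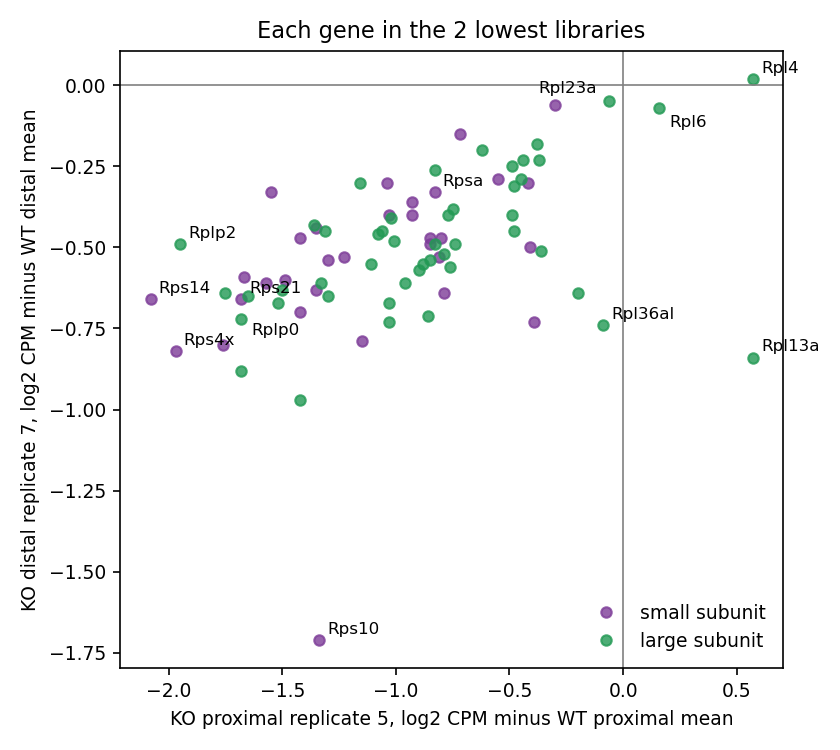
Deviation of each ribosomal protein gene in KO proximal replicate 5 (horizontal axis) and in KO distal replicate 7 (vertical axis), each as log2 CPM minus the WT mean of its segment, with colours for the subunits. Nearly all points lie below 0 on both axes; Rpl4, at 0.57 and 0.02, does not.

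Other gene groups were low in those 2 libraries too. Nuclear-encoded oxidative phosphorylation genes had a median deviation of −0.78 in KO proximal replicate 5 and −0.46 in KO distal replicate 7, against −0.17 to 0.10 in the other 13 libraries, and mitochondrial ribosomal protein genes −0.26 and −0.36. Ribosomal protein pseudogenes summed to 0.291 and 0.401% of nuclear protein-coding counts in those libraries, against 0.472 to 0.545% in the rest. Across 12189 protein-coding genes, the deviation had r = 0.22 and 0.19 with log2 mRNA length in those libraries, against −0.07 to 0.08 in the others. Ribosomal protein mRNAs are short, with a median of 767.5 bases against 2874 over all protein-coding genes tested. Mitochondrial ribosomal RNA took 68.0 and 71.5% of counts in those libraries, against 57.8 to 71.6% in the others. The part of transcript length, library or mitochondrial ribosomal RNA in the ribosomal protein values was not tested.

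Because most members were low together in KO proximal replicate 5, the start sites of those at both ends of its order are shown. RefSeq promoter windows on GRCm38.p6 were found for 62 of the 82 genes. Each line runs 5′ to 3′ on the gene's strand from 35 bases before the annotated start through the first 25 transcribed bases, for the 4 lowest and then the 4 highest members that have a window; capitals mark the longest unbroken run of C and T within 15 bases of the start.
Rps4x: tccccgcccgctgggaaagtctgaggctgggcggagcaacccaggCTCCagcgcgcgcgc
Rplp2: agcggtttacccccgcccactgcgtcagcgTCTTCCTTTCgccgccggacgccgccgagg
Rps15a: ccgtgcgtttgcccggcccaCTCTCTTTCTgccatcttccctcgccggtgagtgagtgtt
Rpl9: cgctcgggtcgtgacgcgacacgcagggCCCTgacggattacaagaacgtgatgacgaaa
Rpl4: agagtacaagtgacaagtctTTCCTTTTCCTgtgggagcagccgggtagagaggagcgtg
Rpl13a: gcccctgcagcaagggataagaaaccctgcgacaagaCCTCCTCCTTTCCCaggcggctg
Rpl6: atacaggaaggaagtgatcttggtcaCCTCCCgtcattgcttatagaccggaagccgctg
Rpl36al: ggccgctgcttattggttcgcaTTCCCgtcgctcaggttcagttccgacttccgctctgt

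These windows lie at chrX:102189367-102189426 (minus strand) for Rps4x, chr7:141447616-141447675 (plus) for Rplp2, chr7:118116123-118116182 (minus) for Rps15a and chr5:65391407-65391466 (minus) for Rpl9. Those of the members at the upper end lie at chr9:64173352-64173411 (plus) for Rpl4, chr7:45128721-45128780 (minus) for Rpl13a, chr5:121204466-121204525 (plus) for Rpl6 and chr12:69184043-69184102 (minus) for Rpl36al. A run of at least 8 pyrimidines stood near the start in Rplp2 and Rps15a at the lower end and in Rpl4 and Rpl13a at the upper end. The run of Rplp2 covers the annotated start, those of Rps15a and Rpl4 end before it and that of Rpl13a begins after it. The search took runs on either side of the start, so it cannot show whether a terminal tract separates the ends. Over all windows, 40.3% of the 62 ribosomal protein genes and 11.9% of 16510 protein-coding genes held a run of at least 8 pyrimidines within 15 bases of the start. The letters CCGGAAG, searched on both strands of the whole 300-base window, were in 38.7% of the ribosomal protein windows and 12.4% of all. A match of letters is a description of the annotated start and not a mapped site.

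In distal tubule no member was called between KO and WT: 0 of 80 were higher and 0 lower, as for all 12968 genes tested, of which 0% were called in either direction. At an unadjusted p under 0.05, 0 members were higher and 10 lower, where 3.55% of all genes tested were higher and 3.58% lower by the same rule. The lowest adjusted p of a member was 0.662. The log2 differences again leaned one way, with 74 of 80 below 0 and a median of −0.21 (range −0.63 to 0.64), against −0.01 for all genes. Without KO replicate 7 the median was −0.12, with 64 of 80 below 0. Markers of other cell types were also present in the distal groups. The 10 endothelial markers, all present in every distal library, summed to 58.4 to 64.2 CPM in KO distal tubule and 66.4 to 91.3 CPM in WT distal tubule. These endothelial ranges did not overlap. The 7 intercalated cell markers summed to 114 to 216 CPM in KO and 184 to 253 CPM in WT, again all present in every library. The 7 principal and connecting tubule cell markers summed to 69.3 to 143 CPM in KO, with Avpr2 at 0 counts, and 107 to 152 CPM in WT; these ranges overlapped, as did those of the intercalated cells. The part of these cells in the ribosomal protein values was not tested.

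Rps15, of the small subunit, had the smallest p in distal tubule. It had 12, 15.3, 11 and 10.5 CPM in KO distal tubule, against 15.4, 18.7, 18.1 and 16.7 CPM in WT. The groups did not overlap, although KO replicate 6 nearly reached the lowest WT library. The log2 difference was −0.52 ± 0.15 (SE; unadjusted p = 0.0024, adjusted p = 0.662), and −0.48 without replicate 7. Rpl36 and Rpl37 were the other members whose groups did not overlap, all 3 lower in KO; 1.81% of all genes tested lay fully lower and 2.01% fully higher. Rpl37 had 11.4, 11.4, 8.88 and 9.87 CPM in KO distal tubule, against 14.1, 12.8, 12.3 and 13.6 CPM in WT.

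The lowest log2 differences in distal tubule were those of Rpl13a (−0.63) and Rps10 (−0.54), both with few counts, followed by those of Rps15 and Rpl18 (−0.41). Rpl3l (0.64), Rpl36al (0.20), Rps27a (0.08), Rpl15 (0.07) and Rpl4 (0.05) were highest. None was called. Rpl3l had 18, 28, 7 and 21 counts in KO distal tubule, against 4, 11, 12 and 17 counts in WT. The groups overlapped.

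The authors' deposited tables called no ribosomal protein gene in either segment at an adjusted p under 0.05. The share of all genes called in them was not counted. The sign of the proximal table was read from Cldn10 (−12.2) as KO over WT. In the distal table Cldn10 stood at 0.036 and could not set the sign, which was taken to be the same. Rps15 was at −0.50 in that table and at −0.52 as KO over WT in the fit made here. In the authors' deposited table of proximal tubule 79 members had an adjusted p, the lowest 0.349, and 73 fold changes were below 0, with a median log2 fold change of −0.23. In the authors' deposited table of distal tubule 74 members had an adjusted p, the lowest 0.233, and 70 fold changes were below 0, with a median of −0.21.

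More members were called between segments than between genotypes. In WT, 25 of 79 ribosomal protein genes (31.6%) were higher in proximal than in distal tubule and 1 (1.27%) was lower, where 23.6% of all 13616 genes tested were called higher and 25.1% lower. The share called higher was near the background, and the share called lower was well below it. The median of the members was 0.22, with 61 above and 18 below 0, against −0.02 for all genes. These directions depend on the scaling. With the nuclear protein-coding total as library size, the median of all genes moved to −0.29 and that of the members to −0.04, with 8 members called higher and 12 lower, where 18% of all genes were called higher and 34.5% lower. The summed share pointed slightly the other way, with a log2 ratio of −0.05 for WT proximal over WT distal, but as a share of all counts, mitochondrial ribosomal RNA included, the log2 ratio was 0.65. Under both scalings the members' median lay above that of all genes.

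Rpl28 and Rps19 had the largest differences between segments in WT. Rpl28, of the large subunit, had 29.4, 36.2, 40 and 38.1 CPM in WT proximal tubule, against 20.6, 14.2, 19.5 and 19.8 CPM in WT distal tubule. The log2 difference was 0.96 ± 0.14 (SE, limma adjusted p = 2.46e-05). Rps19, of the small subunit and known from its mutations in Diamond-Blackfan anaemia in humans, had 17.1, 19.5, 18.7 and 21.8 CPM in WT proximal tubule, against 10.6, 9.54, 11.1 and 8.88 CPM in WT distal tubule. For both genes the groups were far apart. The log2 difference of Rps19 was 0.93 ± 0.13 (SE, adjusted p = 1.51e-05). With the nuclear protein-coding library size both remained called higher, at 0.69 and 0.67.

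Rpl10, a late-joining protein of the large subunit and the member with the highest level per kilobase, reached 127 ± 16.8 CPM in WT proximal tubule, against 77.4 ± 10.4 CPM in WT distal tubule (SD, n = 4 each; log2 difference 0.71 ± 0.12 SE, adjusted p = 0.00011). Rpl13a (0.85 ± 0.34 SE, adjusted p = 0.0489) was also called but holds only 14 to 71 counts in these libraries and lost its call in 6 of the 8 fits that each left out 1 library. With the nuclear protein-coding library size Rpl10 remained called and Rpl13a did not. Rpsa (0.37, adjusted p = 0.00784) and Rplp0 (0.53, adjusted p = 0.00186) were called higher, and both lost the call with the nuclear protein-coding library size (0.10 and 0.27, adjusted p = 0.409 and 0.0749), while Rplp1 and Rplp2 were not called. The 25 members called higher comprised 15 of the small and 10 of the large subunit.

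Rpl21, of the large subunit, was the member called lower. It had 20.4, 23.7, 27.2 and 22.3 CPM in WT proximal tubule, against 28.9, 26.1, 32.2 and 28.5 CPM in WT distal tubule. The ranges overlapped, and the log2 difference of −0.32 ± 0.12 (SE, adjusted p = 0.0361) lost its call in 6 of the 8 fits that each left out 1 library. Rpl8 (−0.27), Rpl31 (−0.22), Rps9 (−0.17) and Rps6 (−0.13), the last being the S6 kinase target, followed without a call.

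Paralogues were compared with their core genes per kilobase of annotated exon. Rps27l, a paralogue of Rps27 known as a p53 target, had 10.2, 11.2, 13.9 and 15.3 CPM in WT proximal tubule, against 8.51, 5.58, 8.33 and 7.54 CPM in WT distal tubule. The groups did not overlap, and the log2 difference was 0.76 ± 0.17 (SE, adjusted p = 0.00166). Rps27 itself was also called, with a log2 difference of 0.34 ± 0.12 (SE, adjusted p = 0.0305), a call lost without WT proximal replicate 3 (0.33, adjusted p = 0.0529), without WT distal replicate 2 (0.23, adjusted p = 0.128) and with the nuclear protein-coding library size (0.078, adjusted p = 0.612); whether the paralogues differ in this was not tested. Averaged over the 15 libraries, Rps27l reached 11.7 and Rps27 23.4 CPM per kilobase. Annotated exon was longer than the mRNA, at 1043 against 345 bases for Rps27 and 816 against 499 bases for Rps27l. The ratio of paralogue to core gene therefore depends on the length taken. Rpl36al stood at 0.862 and Rpl36a at 6.96, and Rpl3l at 0.149 and Rpl3 at 14.3 CPM per kilobase. In the annotation, 98.6% of the 50-base words of Rps27 and 85.5% of those of Rpl36a occur in other genes' transcripts.

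In KO, 7 of 80 members (8.75%) were higher in proximal than in distal tubule and 0 lower, where 20.4% of all 13834 genes were called higher and 20.2% lower. The median was 0.11, with 50 above and 30 below 0, against −0.04 for all genes. The 7 were Rpl4, Rpl6, Rpl10, Rpl13a, Rpl28, Rps2 and Rps19, of which 5 were also called in WT. With the nuclear protein-coding library size, 0 were called higher and 8 lower (10%), where 14.8% of all genes were called higher and 31.7% lower, and the medians were −0.28 for members and −0.43 for all genes. Libraries decided these counts: without KO proximal replicate 5, 35 of 80 (43.8%) were called higher and 0 lower, with a median of 0.43, where 20.3% of all 14619 genes were called higher and 17.9% lower. Without it and KO distal replicate 7, a choice made after seeing the data, 29 were called higher and 0 lower, with a median of 0.37, where 19.8% of all genes were called higher and 18.8% lower. Of those 29, 19 were among the 25 of WT.

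Rpl28 had 34.5, 21.4 and 39.6 CPM in KO proximal tubule, against 18.4, 21.7, 13.1 and 18.7 CPM in KO distal tubule. Replicate 5 fell among the distal values and the other proximal libraries were above them. The log2 difference was 0.82 ± 0.23 (SE, adjusted p = 0.0115), and 0.94 without the 2 libraries. Rps19 had 20.3, 9.39 and 19.6 CPM in KO proximal tubule, against 9.63, 10.9, 7.56 and 8.69 CPM in KO distal tubule, a log2 difference of 0.78 ± 0.26 (SE, adjusted p = 0.0278). The Rps19 call was lost in 5 of the 7 fits that each left out 1 library (without proximal replicate 4 or 7 or distal replicate 5, 7 or 8; lowest 0.61), and that of Rpl28 in 2 (without proximal replicate 4 or 7; lowest 0.63). Neither was called with the nuclear protein-coding library size (0.40 and 0.43, adjusted p = 0.221 for Rps19 and 0.13 for Rpl28). Rps27l, at 11.9, 5.07 and 19.1 CPM in KO proximal tubule and 7.45, 7.23, 5.07 and 6.64 CPM in KO distal tubule, was not called with all libraries (0.70 ± 0.35 SE, adjusted p = 0.134) and was called without the 2 libraries (1.11, adjusted p = 0.00313). The lowest were Rpl3l (−1.86), Rps14 (−0.57), Rpl21 (−0.52), Rps21 (−0.51) and Rps9 (−0.45), none called.

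**Figure D4:**
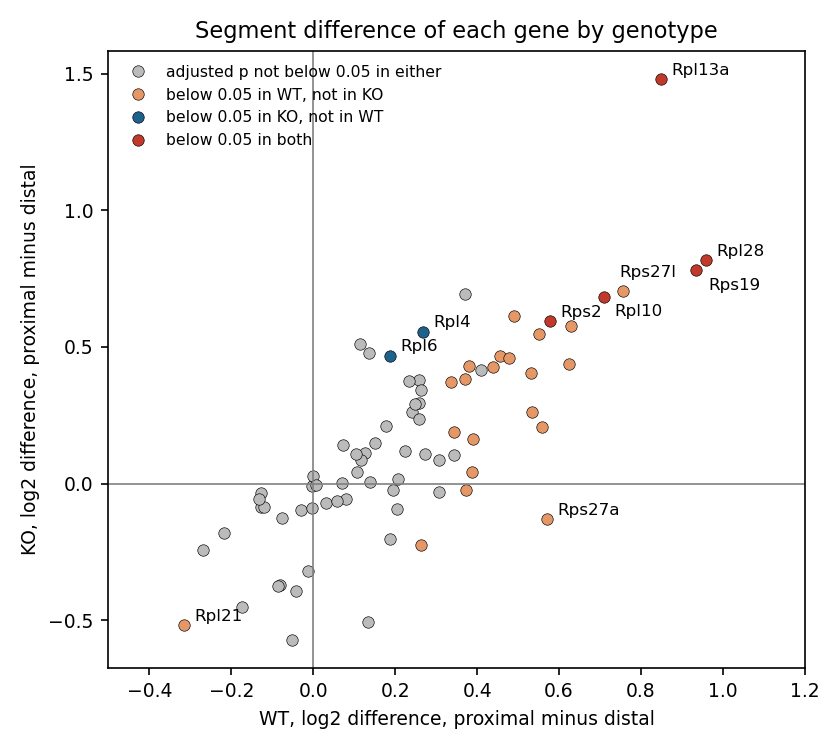
log2 difference between proximal and distal tubule of each ribosomal protein gene tested in both genotypes, in WT (horizontal axis) and KO (vertical axis), coloured by whether the adjusted p was below 0.05. Rpl28, Rps19, Rpl10, Rps2 and Rpl13a were called higher in both; Rps27a is high in WT and not in KO.

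**Figure D5:**
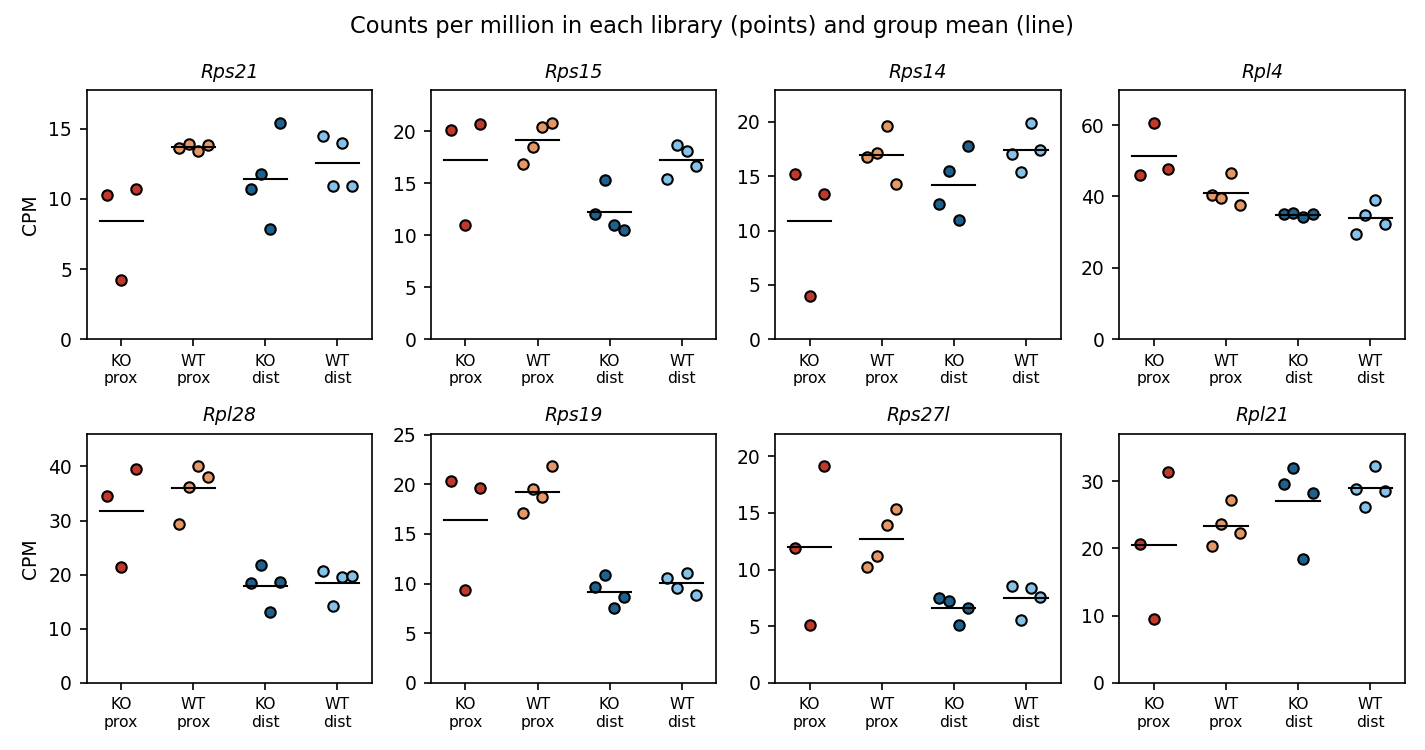
CPM of 8 ribosomal protein genes in each library (points) with group means (lines), for KO and WT proximal and KO and WT distal tubule. The upper row shows genes with the lowest or highest values between genotypes, with KO proximal replicate 5 the lowest point of Rps21, Rps15 and Rps14 in proximal tubule and the highest of Rpl4; the lower row shows genes that differed between segments in WT.

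The effect of genotype was not shown to differ between segments for any member. In the interaction of genotype and segment, 0 of 80 were called higher and 0 lower, as for all 15279 genes tested, of which 0% were called in either direction. At an unadjusted p under 0.05 there were 0 higher and 1 lower, where 3.16% of all genes tested were higher and 2.4% lower. That gene was Rps27a (−0.72 ± 0.34 SE, unadjusted p = 0.0464, adjusted p = 0.895), lower in KO in proximal tubule and at 9.58, 8.51, 7.14 and 13.5 CPM in KO distal tubule, against 9.10, 7.98, 9.34 and 9.55 CPM in WT distal tubule. The median over the members was −0.06, and 0.24 without KO proximal replicate 5.

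Fau and Rack1, ribosome components outside the name rule, were not called between genotypes. Fau, whose product is a ubiquitin-like protein fused to a small subunit protein, had 24.7, 9.72 and 19.2 CPM in KO proximal tubule, against 24.3, 27.5, 27.2 and 22.5 CPM in WT (−0.62 ± 0.25 SE, adjusted p = 0.599). Rack1, the small subunit scaffold for kinases, had 38.1, 20.1 and 42.1 CPM in KO, against 32.3, 38.0, 37.8 and 35.8 CPM in WT, again with replicate 5 lowest. Between segments in WT, Fau (0.47, adjusted p = 0.00586) and Rack1 (0.52, adjusted p = 0.000709) were higher in proximal tubule with trimmed mean scaling. Whether these 2 calls hold with the nuclear protein-coding library size was not examined.

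Genes that act on ribosomes were not called between genotypes in either segment: 0 of 16 translation factors and other mRNAs known to carry the pyrimidine tract, 0 of 30 ribosome assembly genes and 0 of 13 tested controllers of ribosomal protein mRNAs. Over all genes tested, 0.0983% were called higher and 0.068% lower in proximal tubule, and 0% in distal tubule. These counts therefore do not set the lists apart from other genes. The 16 pyrimidine-tract mRNAs had a median log2 difference of −0.01 in proximal tubule, where that of the ribosomal protein genes was −0.28, or 0.01 without KO replicate 5. A median below 0 was not particular to ribosomal protein genes. Nuclear-encoded oxidative phosphorylation genes had a median of −0.31 in proximal tubule, with 75 of 79 below 0. By library, their median deviation from the WT proximal mean was −0.09, −0.78 and 0.01 in KO proximal replicates 4, 5 and 7, with replicate 5 apart. In distal tubule their median was −0.17, with 67 of 78 below 0. Between segments in WT, where 23.6% of all genes were called higher and 25.1% lower, 8 of the 16 were higher and 0 lower in proximal tubule, led by Tpt1 (1.67 ± 0.10 SE, adjusted p = 1.13e-09), Eef1a1 (0.93 ± 0.09 SE, adjusted p = 2.03e-07), the elongation factor that brings aminoacyl-tRNA to the ribosome, and the histone chaperone Nap1l1 (1.49 ± 0.15 SE, adjusted p = 5.29e-07). Of the assembly genes 4 of 30 were higher and 0 lower, both below the share over all genes, among them Gnl3 (1.27), Npm1 (0.67) and Nhp2 (0.93), a protein of the small nucleolar RNA complexes. Of the controllers 6 were higher and 4 lower: the kinase Mtor (1.78, adjusted p = 3.05e-07) and Myc (5.32, adjusted p = 1.56e-05) were higher in WT proximal tubule than in WT distal tubule, and the translation inhibitor Pdcd4 (−2.05, adjusted p = 3.82e-08) was lower. Mitochondrial ribosomal protein genes, which belong to a separate ribosome, had 15 of 76 higher and 9 lower with a median of −0.00, and oxidative phosphorylation genes had 1 of 79 higher and 65 lower with a median of −0.59. All these segment values come from trimmed mean scaling. With the nuclear protein-coding library size the median of all genes moved from −0.02 to −0.29, and these lists were not examined under it.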

How the data were processed

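RNA came from the Rneasy Plus Micro kit and libraries from the Nextera XT protocol, per the labels' protocols; per the submitters' processing notes, CASAVA 1.8, STAR 2.5, DESeq2 1.24.0 and GRCm38 were used, each without a stated role. The program that counted reads, and whether it used strand, is not given in the sources used here. The authors deposited whole-number gene counts; the table's layout kept the unit from being recorded as counts, so it was recorded as other, as were the log2 fold changes and adjusted p-values of the authors' deposited tables, and a linear model with count-based weights was used here in place of a count model, which was not run.

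Genes were named from GENCODE M21. Trimmed mean scaling (TMM, trimming 30% of log ratios and 5% by intensity) was applied; genes needed a depth-scaled count of about 10 in a number of libraries equal to the smaller group, and 15 counts in all, and were tested with limma 3.58.1 in R 4.3.3 (voom, prior count 0.5, Benjamini-Hochberg over all genes tested), each comparison on its own groups. The procedure was tested on simulated data. CPM come from 1 scaling of all 15 libraries. Pyrimidine-run and motif searches used RefSeq promoter windows. The members, lists and naming rule (stalk genes and Rpsa, paralogues with their core genes, Rps21, the 5 highest and 5 lowest log2 differences of each comparison, the 3 highest and 3 lowest levels, up to 3 genes of each other list) were chosen with earlier results of these data known; Rps12, Rps16, Rpl36 and Rpl37 were named after their values were seen because their groups did not overlap, and members at either end of KO proximal replicate 5 and KO distal replicate 7 likewise. Some genes that these rules name are not reported here.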

Additional observations from a re-analysis of the deposited data

Results flagged for a closer look

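Among 4 libraries of a group, a named ribosomal protein gene was set aside when its highest or lowest library lay apart from the other 3 by more than Dixon's limit, which chance alone passes in about 1 of 20 groups. Of 114 groups looked at, 4 were set aside, which is below that rate. The 114 cover 37 named members and the summed share of all members, which was looked at in the same way. Rpl10l and Rpl39l, with 0 counts, are among the named members and could not be set aside. Rpl29 was lowest in a KO distal library at 8.55 CPM, the library of replicate 7 in which most members were low. Rps4x was lowest in a WT distal library at 45.2 CPM, against 60.2 to 61.2 CPM in the other WT distal libraries. Rpl15 was highest in a WT proximal library at 53.6 CPM, against 44.7 to 45.9 CPM in the others, and Rpl36a was highest in a WT distal library at 11.6 CPM, against 11.1 to 11.2 CPM in the others. The low value of KO proximal replicate 5 could not be tested in this way, since its group holds 3 libraries.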

How the results depend on the processing

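Between genotypes and in the interaction, 0 members were called under every alternative run. The proximal median ran from −0.50 to 0.01 and the distal from −0.28 to −0.12 when 1 library was left out. Between segments in WT, an adjusted p under 0.1 gave 2 members lower (28.5% of all genes), the nuclear protein-coding library size 8 higher and 12 lower (18 and 34.5%) with a median of −0.042, and 1 fit of all libraries 15 higher (21.3%). In KO, an adjusted p under 0.1 gave 15 higher and 1 lower (23.3 and 23.8% of all genes), the nuclear protein-coding library size 0 higher and 8 lower (14.8 and 31.7%) with a median of −0.28, sample quality weights 21 higher (21.8%) and 1 fit of all libraries 15 higher (21.1%). With all counts as denominator, the log2 ratio of the summed share was 0.65 in WT and 0.75 in KO. With a replicate block, 16 members were higher and 0 lower between segments in WT (20.9 and 22% of all genes) and 0 higher in KO (12.4%); same-numbered libraries did not deviate together (r −0.12 to 0.02), so the numbers are not taken as pairs.

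With 1 library left out, the number called lower in WT was 0 (without proximal replicate 6, or distal replicate 3 or 4) to 2 (without distal replicate 1). In KO, 2 members were called higher without proximal replicate 4 or 7, 3 without distal replicate 5 or 7, 4 without distal replicate 8 and 35 without proximal replicate 5, and 0 to 1 lower; over these fits 21.8 to 22.8% of all genes were higher and 23.1 to 24.2% lower in WT, and 18.1 to 20.3% higher and 15.6 to 18% lower in KO. The interaction median ran from −0.24 to 0.24. Signs changed with 1 library left out for Rpl29 in proximal tubule (−0.0089 to 0.30) and, in distal tubule, for Rpl36al (−0.10 to 0.50), Rps27a (−0.11 to 0.22), Rpl15 (−0.026 to 0.19) and Rpl4 (−0.012 to 0.12), and between segments in KO for Rps14 (−0.89 to 0.039) and Rps9 (−0.71 to 0.042). The cause of these changes was not tested. Depth limits Rps10, with 6 to 43 counts in a library, and Rpl3l, with 0 to 28.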
